A study of Mus musculus with 2 samples.

Results

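The 10 genes described here encode proteins that neutrophils store in their granules: Elane, Prtn3 and Mpo (primary or azurophil granules), Camp, Ngp, Lcn2, Ltf and Cd177 (secondary or specific granules), and Mmp8 and Mmp9 (a collagenase and a gelatinase). They were chosen by symbol from the 32285 gene rows of 1 single-cell library, and all 10 were found. Cells came from adult C57BL/6 mouse thymus, were sorted for surface CD64, the high-affinity Fc gamma receptor, and were profiled with 10x 3′ chemistry. The labels give 1 group of 2 libraries, titled 2021 and 2024, and no allele, treatment, sex or number of pooled animals. Only the 2021 library was used for genes, so every value below has no replicate, intervals cover counting error only, and no p-value was computed.

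A neutrophil fills its granules while it matures. In textbook accounts primary granule genes are transcribed first, in promyelocytes, secondary granule genes follow in myelocytes and metamyelocytes, and gelatinase comes last, so that the time of transcription sorts a protein into its granule. Elastase (Elane), proteinase 3 (Prtn3) and myeloperoxidase (Mpo) are the killing enzymes of the primary granule. Cathelicidin (Camp), neutrophilic granule protein (Ngp), the iron-siderophore binder lipocalin 2 (Lcn2) and the iron binder lactoferrin (Ltf) fill the secondary granule, and Cd177 is a surface protein also kept in granule membranes.

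Several members are neighbours in the genome. On mm10, Camp (chromosome 9, 109847379 to 109849617, minus strand), Ngp (chromosome 9, 110419747 to 110423012, plus strand) and Ltf (chromosome 9, 111019271 to 111042767, plus strand) follow each other with gaps of 570 kb and 596 kb. Prtn3 (chromosome 10, 79874476 to 79883174) and Elane (chromosome 10, 79886247 to 79888215) lie on the plus strand 3073 bases apart. Mmp8 lies at the other end of chromosome 9 (7558456 to 7568485, plus strand), Lcn2 (32384633 to 32388252, minus strand) and Mmp9 (164940780 to 164955850, plus strand) on chromosome 2, Mpo on chromosome 11 (87793581 to 87804413, plus strand) and Cd177 on chromosome 7 (24743983 to 24760311, minus strand). All 10 are protein-coding. In the annotation Mpo overlaps Gm11505 and Prtn3 overlaps Plppr3 on the opposite strand, and the strand setting of the counting is not given in the sources used here, so reads of those partners cannot be told apart from reads of the 2 members.

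To set the letters before their starts beside the stage values that follow, the 250 bases before the RefSeq start of 6 members are shown, 5′ to 3′, on GRCm38.p6 (mm10). Except for Mmp8, the windows shown end inside the gene spans given above. Capitals mark matches, on either strand, to a C/EBP core (TTGCNNAA, where N is any base) or an ETS core (GAGGAA); the RUNX core TGTGGT was also searched and no match to it lay in the windows of the 9 members that the table holds.
Elane (chr10:79886062-79886311, plus strand): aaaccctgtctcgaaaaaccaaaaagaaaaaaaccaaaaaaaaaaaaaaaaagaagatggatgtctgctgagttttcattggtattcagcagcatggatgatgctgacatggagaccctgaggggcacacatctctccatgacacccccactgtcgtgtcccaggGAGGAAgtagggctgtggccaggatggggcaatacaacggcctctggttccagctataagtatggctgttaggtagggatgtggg
Prtn3 (chr10:79879417-79879666, plus strand): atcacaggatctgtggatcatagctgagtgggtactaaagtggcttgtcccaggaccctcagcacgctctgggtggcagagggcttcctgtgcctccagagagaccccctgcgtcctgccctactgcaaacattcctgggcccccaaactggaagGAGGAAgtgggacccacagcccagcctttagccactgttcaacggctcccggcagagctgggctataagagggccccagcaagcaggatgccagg
Camp (chr9:109849457-109849706, minus strand): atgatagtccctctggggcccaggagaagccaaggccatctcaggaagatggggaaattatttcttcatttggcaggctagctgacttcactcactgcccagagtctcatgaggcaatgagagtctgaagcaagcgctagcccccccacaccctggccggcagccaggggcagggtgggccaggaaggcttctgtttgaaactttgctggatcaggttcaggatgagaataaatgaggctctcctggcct
Ngp (chr9:110419558-110419807, plus strand): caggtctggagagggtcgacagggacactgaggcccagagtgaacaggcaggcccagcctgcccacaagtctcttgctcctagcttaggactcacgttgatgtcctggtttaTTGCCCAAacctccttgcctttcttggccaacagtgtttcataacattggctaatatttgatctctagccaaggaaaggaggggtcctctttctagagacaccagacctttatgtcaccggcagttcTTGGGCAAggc
Ltf (chr9:111019042-111019291, plus strand): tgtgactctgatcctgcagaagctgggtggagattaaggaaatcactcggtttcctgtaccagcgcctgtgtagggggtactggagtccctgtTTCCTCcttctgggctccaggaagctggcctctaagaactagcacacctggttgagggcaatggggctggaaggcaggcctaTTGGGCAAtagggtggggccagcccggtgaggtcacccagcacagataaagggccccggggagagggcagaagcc
Mmp8 (chr9:7558179-7558428, plus strand): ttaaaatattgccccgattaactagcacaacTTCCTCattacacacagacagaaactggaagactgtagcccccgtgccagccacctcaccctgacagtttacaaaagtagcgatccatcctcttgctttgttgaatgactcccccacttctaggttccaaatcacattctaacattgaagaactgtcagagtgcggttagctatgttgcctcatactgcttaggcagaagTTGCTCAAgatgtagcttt

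The windows of the 3 primary members (Elane, Prtn3, Mpo) each held the ETS letters, which start 85 bases before the start of Elane and 95 bases before that of Prtn3. None of those 3 held the C/EBP letters. Ngp, Ltf, Lcn2 and Mmp8 held the C/EBP letters, Ngp in 2 places (138 and 11 bases before its start) and Ltf in 1 (75 bases before). The Camp and Cd177 windows held no C/EBP match, and the Camp window held no match to any of the 3 motifs. In all, 4 of 9 member windows held the C/EBP letters against 9.55% of 27025 mouse promoter windows of the same length, 7 of 9 held the ETS letters against 23.1%, and 0 of 9 held the RUNX letters against 14.2%. These matches describe letters in a window and are not evidence of binding.

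In the 2021 library 8534578 UMIs (molecular tags that count captured transcripts) were spread over 3214 barcodes, from 502 to 18653 each. A total of 3188 barcodes passed the filter of 500 UMIs, 300 genes and 10% mitochondrial UMIs, and 3185 remained after 3 called doublets were removed. Clusters were formed without the members and without 25 other granule genes, and were named from marker lists. The labels call the cells macrophages, but 412 cells (12.9%) were named macrophage-like and 428 (13.4%) lay in neutrophil-like clusters. A cluster of 44 cells led by Pf4 and Prg4 had 10 macrophage markers raised and stayed unnamed, since it was shallow (median 682.5 UMIs) and none of those markers was among its leading genes. Fcgr1, the transcript of the sorted protein, had 3 UMIs in all 428 neutrophil-like cells (3.86 CPM, counts per 1000000 UMIs), against 170 UMIs in the macrophage-like cells (122 CPM), so the members were read in cells that carried almost no transcript of the sort marker.

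Neutrophil-like cells were divided into stages by subclusters, ordered by their ratio of immature to mature neutrophil genes that are not members. An early subcluster (133 cells, median 2253 UMIs) had a ratio of 43.4, an intermediate one (168 cells, median 1592) had 6.69 and a late one (107 cells, median 811) had 0.207. The late cells carried Il1b, Cxcr2 and other genes of mature neutrophils at 19012 CPM summed over 10 genes, against 404 CPM in early cells. Stages placed before these came from an unnamed cluster of dividing cells. They were 61 dividing neutrophil-like cells (median 5878 UMIs) and 10 progenitor-like cells (median 8960). The latter were named from 4 raised markers of a list of 8, Ms4a3 and Ctsg among them, and Cd34 of that list had 0 UMIs. Markers of other granulocytes were also raised there (3), and Ctsg is itself a primary granule gene. The place of both groups rests on progenitor and dividing genes, not on the immature to mature ratio. That ratio was 25.5 in progenitor-like cells, and 87.8 and 15.3 in the subclusters of dividing neutrophil-like cells (42 and 19 cells). By the ratio alone, progenitor-like cells would follow early cells. Of the dividing neutrophil-like subclusters, that of 42 cells had 3 neutrophil and 2 progenitor markers raised. That of 19 cells had 4 neutrophil and 4 monocyte markers raised, a tie settled by its leading genes. Of 10 neutrophil markers, 6 had UMIs in progenitor-like cells (Cxcr2, Ly6g, Trem1 and Stfa2l1 were at 0), 9 in dividing cells (Stfa2l1 at 0) and all 10 in the other stages. Summed macrophage markers stood at 494, 182, 109, 168 and 461 CPM from progenitor-like to late cells, and Mertk, Timd4 and Cd5l were at 0 in all 5. Summed monocyte markers stood at 3906, 6362, 6290, 2845 and 1085 CPM, and that list holds Chil3, which alone stood at 2162, 5195, 5135, 1176 and 76.8 CPM. The part of these markers in the results was not tested. The stages are groups of cells from 1 sample, not times, and depth per cell falls along them. A subcluster of 9 cells with 8 neutrophil markers raised stayed unnamed. Another of 11 cells, led by Ifitm1, Ccl3 and Ccl4, had 4 markers of other granulocytes and 2 of neutrophils raised. Neither was placed in a stage, but both count among the 428 cells.

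**Figure D1:**
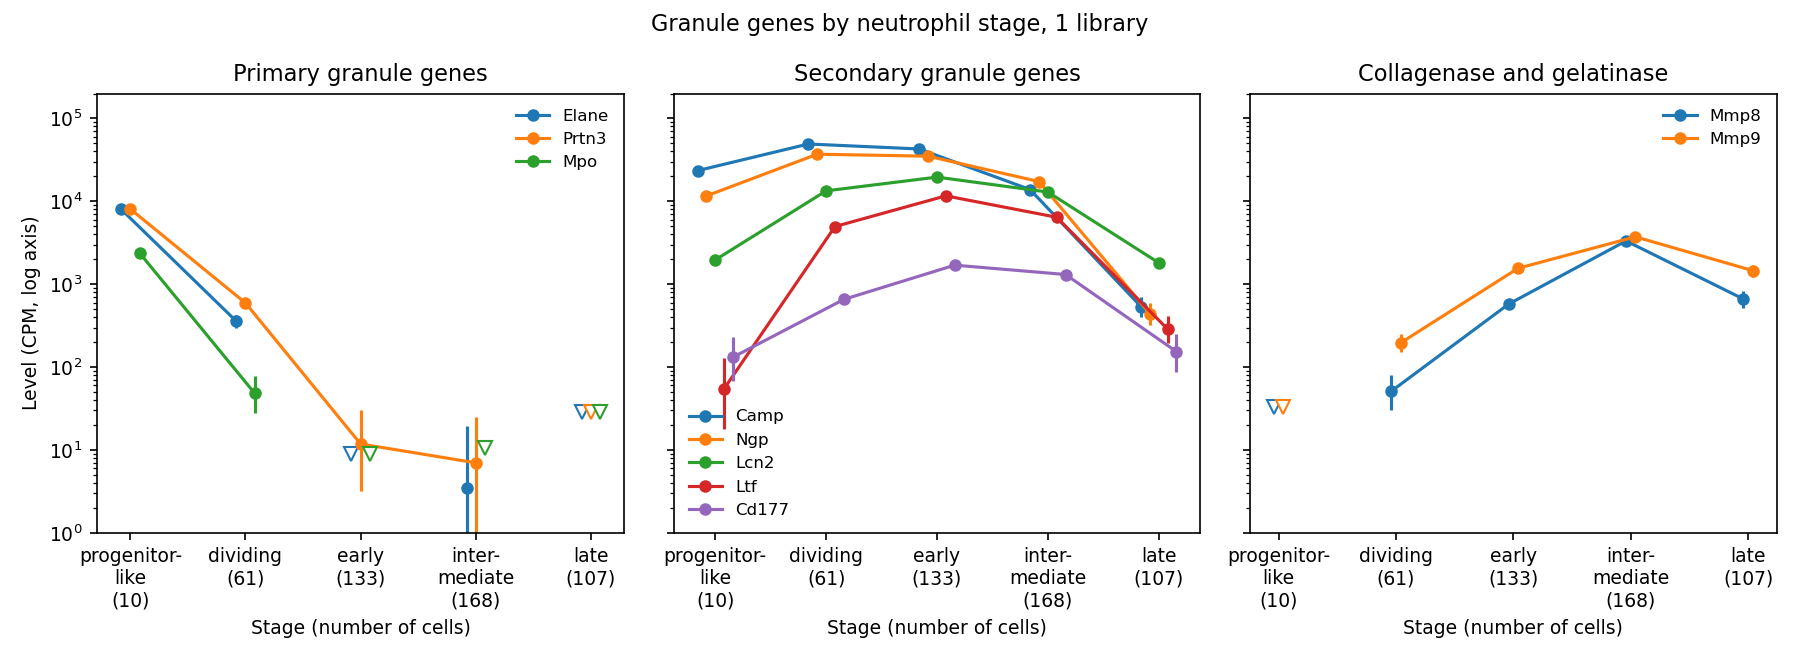
Level of each member in counts per 1000000 UMIs (CPM, log axis) in the 5 stages, with the number of cells in parentheses. Points are summed counts of the stage with exact 95% Poisson intervals (vertical lines, counting error only), and open triangles mark the level that 3 counts would give where none was seen. Elane, Prtn3 and Mpo are highest in the 10 progenitor-like cells, Camp in dividing cells, Ngp in dividing and early cells (an order that flips with the scaling), Lcn2, Ltf and Cd177 in early cells, and Mmp8 and Mmp9 in intermediate cells.

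Primary genes were highest in progenitor-like cells, Camp in dividing neutrophil-like cells, Ltf, Lcn2 and Cd177 in early cells, and Mmp8 and Mmp9 in intermediate cells. Ngp was highest in dividing cells by 1.06-fold over early cells, a difference that turns to the other side when members, S100a8 and S100a9 are left out of the total. Summed over the 10 genes, members made up 5.57% of all UMIs in progenitor-like cells, 10.6% in dividing cells, 11.3% in early cells, 5.89% in intermediate cells and 0.536% in late cells. S100a8 and S100a9 took a further 26.3%, 40.2%, 42.3%, 40.1% and 21.4%, so levels are shares of a total that few genes fill.

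Most primary granule transcripts lay in 10 cells. Elane stood at 8010 CPM in progenitor-like cells (730 UMIs, 95% interval 7439 to 8613), with 0 to 161 UMIs per cell and a median of 69.5. It stood at 358 CPM in dividing neutrophil-like cells (126 UMIs, interval 298 to 426), and 1 of those cells held 83 of the 126. Early and late cells held no Elane UMI and intermediate cells held 1.
Prtn3 followed Elane closely. It stood at 8065 CPM in progenitor-like cells (735 UMIs, 5 to 189 per cell, median 64.5), 594 CPM in dividing cells, 11.8 CPM in early cells (4 UMIs) and 0 in late cells, with 2 UMIs in intermediate cells. The Prtn3 to Elane ratio in progenitor-like cells was 101 to 100, and per cell the correlation of the genes was 0.89 over 358 cells thinned to 1000 UMIs. Most of those cells held neither gene. After that thinning a primary UMI was seen in all 10 progenitor-like cells, 9 of 60 dividing cells, 1 of 134 intermediate cells and no early or late cell. The correlation thus mostly separates few cells from the rest.
Mpo was less abundant, at 2381 CPM in progenitor-like cells (217 UMIs, 2 to 72 per cell, median 17) and 48.3 CPM in dividing cells (17 UMIs in 3 cells). No Mpo UMI was seen in the 428 neutrophil-like cells (interval 0 to 4.75 CPM).

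Of the 2410 primary UMIs in the library, 69.8% lay in the 10 progenitor-like cells, 14.6% in the 61 dividing neutrophil-like cells and 0.290% in the neutrophil-like clusters. The last share depends on the settings that choose the neutrophil-like cells. Over 8 settings, the main one included, it ran from 0 to 94.1% for Elane, 0 to 84.9% for Mpo and 0.443% to 90.4% for Prtn3. Progenitor-like cells were above dividing cells by 22.4-fold for Elane (log2 4.48, interval 4.21 to 4.77), 13.6-fold for Prtn3 and 49.3-fold for Mpo. From dividing to early cells Elane was at least 40.4-fold lower against the level of 3 counts in the early cells, and at least 14.2-fold lower without the dividing cell that held 83 UMIs. Without that cell dividing neutrophil-like cells held 126 CPM of Elane and 311 CPM of Prtn3.

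Among genes compared between progenitor-like and dividing cells (at least 30 UMIs together), 27.2% were at least 2-fold higher in progenitor-like cells and 15.9% at least 2-fold higher in dividing cells. Of the 9 members that met the minimum, 3 were higher in progenitor-like cells (Elane, Prtn3, Mpo) and 6 higher in dividing cells (Camp, Ltf, Ngp, Lcn2, Mmp9, Cd177).

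The progenitor-like cells were not alike. A cell of the 10 held 371 Prg2, 74 Prss34, 48 Mcpt8 and 46 Prg3 UMIs, genes of eosinophils, basophils and mast cells, beside 35 Mpo and 5 Prtn3 and no Elane or Camp. Without it the other 9 held 8476 CPM of Elane, 8476 CPM of Prtn3 and 2113 CPM of Mpo, and none of the 4 genes named. Of those 9 cells, the cell with most primary UMIs (422) held 4 Camp UMIs, 1 held 0, and the other 7 held 76 to 442. At a resolution of 0.5 in place of 1.0 inside the dividing cluster, the group became 20 cells with 4990 CPM of Elane and 1989 CPM of Ltf.

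**Figure D2:**
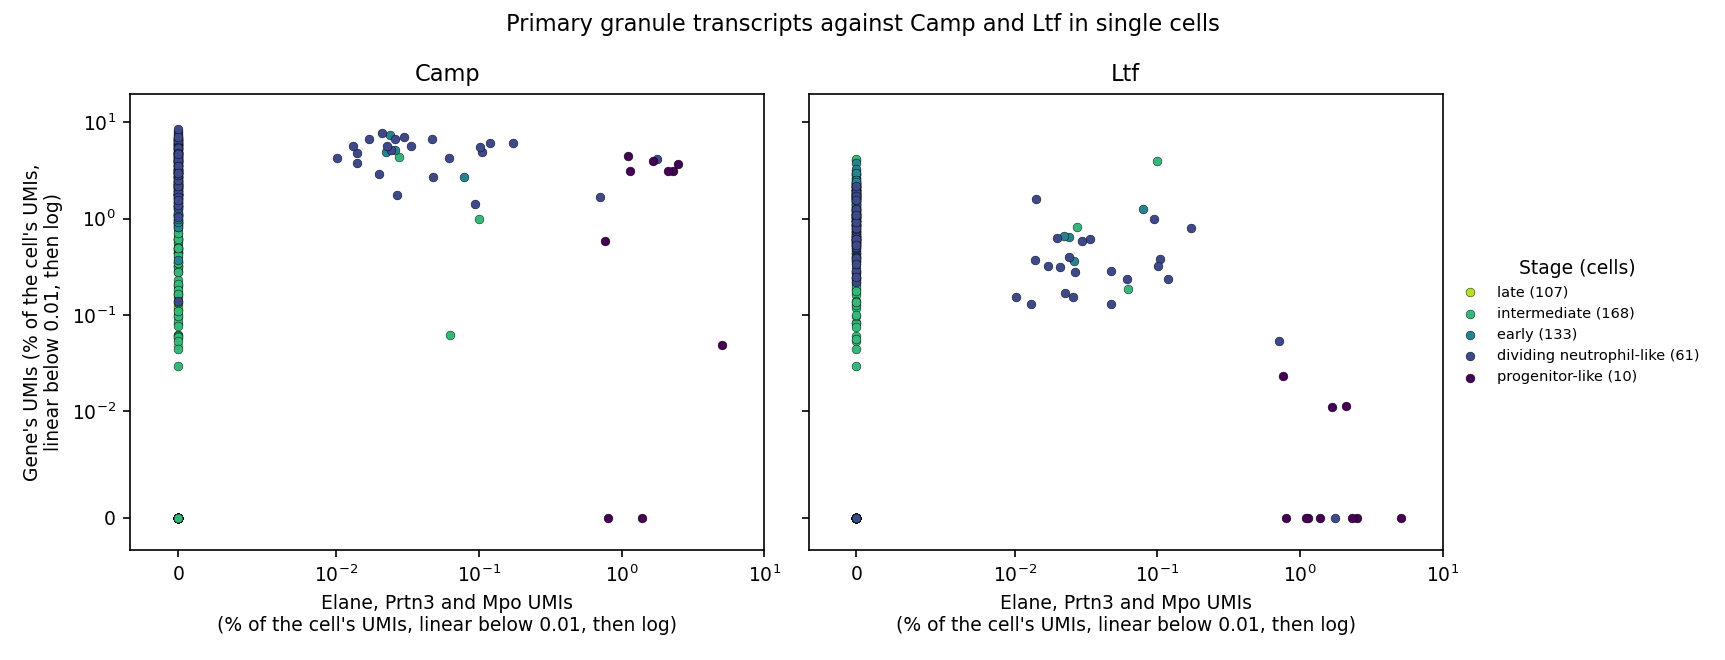
Each point is 1 cell of the 5 stages (cells per stage in the legend), and late cells lie mostly under other points at 0. The x axis is the share of the cell's UMIs from Elane, Prtn3 and Mpo, and the y axis the share from Camp (left) or Ltf (right), both in percent and linear below 0.01. Progenitor-like cells carry Camp beside primary transcripts in 8 of 10 cells and an Ltf UMI in 3 of 10.

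Secondary granule genes differed in their levels in the progenitor-like cells. In the 10 progenitor-like cells Camp was at 23448 CPM (2137 UMIs, 0 to 442 per cell, median 274) while Ltf was at 54.9 CPM (5 UMIs in 3 cells). Camp was seen in 8 of these cells and Ngp in 7, beside the primary genes. Ltf per 100 Camp UMIs was 0.234 in progenitor-like cells, 10.1 in dividing cells, 27.2 in early cells and 46.3 in intermediate cells. Late cells had 53.6, from 30 Ltf and 56 Camp UMIs, most of them in 1 cell. The progenitor-like value depends on the resolution chosen inside the dividing cluster: at 0.5, with 20 cells, Ltf stood at 1989 CPM and Camp at 25410 CPM.

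Camp, the cathelicidin precursor, stood at 49181 CPM in dividing cells (6 to 718 UMIs per cell, median 281), 42811 in early cells (5 to 507, median 72), 13866 in intermediate cells (0 to 208, median 7) and 538 in late cells (0 to 40, median 0). Every dividing and early cell held a Camp UMI. Ngp ran beside it, at 11631 CPM in progenitor-like cells, 37050 in dividing cells, 35045 in early cells, 17317 in intermediate cells and 442 in late cells. Per cell, Camp and Ngp had the closest relation among the 10 members (Pearson r 0.90 over 358 cells of the 5 stages thinned to 1000 UMIs), described without a test. Ngp per 100 Camp UMIs went from 49.6 in progenitor-like cells to 125 in intermediate cells. Late cells had 82.1, from 46 Ngp and 56 Camp UMIs, with 40 of those Camp UMIs in 1 cell.

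Lcn2 and Ltf peaked later. Lcn2 stood at 1964 CPM in progenitor-like cells, 13381 in dividing, 19598 in early (2 to 157 UMIs per cell, median 43), 12949 in intermediate and 1815 in late cells. Ltf stood at 4962 CPM in dividing cells (0 to 115, median 27), 11643 in early cells (7 to 66, median 29), 6426 in intermediate cells (0 to 86, median 5) and 288 in late cells. Cd177 was the least abundant secondary member, at 132, 656, 1698, 1309 and 154 CPM from progenitor-like to late cells.

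Going from dividing to early cells, 2 of 9 members with 30 UMIs were at least 2-fold higher in dividing cells (Elane, Prtn3) and 4 at least 2-fold higher in early cells (Ltf, Mmp8, Mmp9, Cd177). Over 1800 genes the shares were 17.3% and 15.1%. Ltf was 2.35-fold and Cd177 2.59-fold higher in early cells, Mmp8 11.3-fold and Mmp9 7.94-fold. Camp was 1.15-fold higher in dividing cells.

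Between early and intermediate cells, Camp (3.09-fold) and Ngp (2.02-fold) were at least 2-fold higher in early cells and Mmp8 and Mmp9 at least 2-fold higher in intermediate cells, out of 7 members with 30 UMIs. Over 1674 genes 6.63% were at least 2-fold higher in early and 12.7% in intermediate cells. Ltf was 1.81-fold, Lcn2 1.51-fold and Cd177 1.30-fold higher in early cells.

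Mmp8 and Mmp9 were the last to reach their highest level and stood apart from the other members. Mmp8, a collagenase, had 0 UMIs in progenitor-like cells and stood at 51.1 CPM in dividing cells, 576 in early cells, 3328 in intermediate cells (0 to 17 UMIs per cell, median 5) and 663 in late cells. Mmp9, a gelatinase, stood at 0, 196, 1556, 3731 (1 to 24 per cell, median 5.5) and 1459 CPM. Mmp8 was 5.78-fold and Mmp9 2.40-fold higher in intermediate than in early cells. Every intermediate cell held a Mmp9 UMI and 160 of 168 held a Mmp8 UMI.
Per 100 Mmp9 UMIs there were 26.1 of Mmp8 in dividing, 37.0 in early, 89.2 in intermediate and 45.4 in late cells. Between cells thinned to 1000 UMIs, Mmp8 and Mmp9 had r = 0.54, and Camp and Mmp8 r = -0.40.

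All 7 members with at least 30 UMIs were at least 2-fold higher in intermediate than in late cells, where 13.7% of 1288 genes were and 28.1% were at least 2-fold higher in late cells. The difference was 25.8-fold for Camp, 39.2-fold for Ngp and 22.3-fold for Ltf, against 7.14-fold for Lcn2, 8.52-fold for Cd177, 5.02-fold for Mmp8 and 2.56-fold for Mmp9. A late cell with 1941 UMIs held 40 of the 56 Camp UMIs, 27 of the 30 Ltf UMIs and 20 of the 46 Ngp UMIs. Without it the late level was 157 CPM for Camp, 29.4 CPM for Ltf and 254 CPM for Ngp, and the difference became 88.6-fold for Camp, 219-fold for Ltf (3 UMIs, log2 7.77, interval 6.22 to 10.05) and 68.1-fold for Ngp. Over all late cells, that cell included, Lcn2 was the most abundant member left, with 338 UMIs per 100 Camp UMIs, and Mmp9 followed at 27.2% of member UMIs. Without that cell 164 Lcn2, 145 Mmp9 and 16 Camp UMIs remained, of 434 member UMIs.

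**Figure D3:**
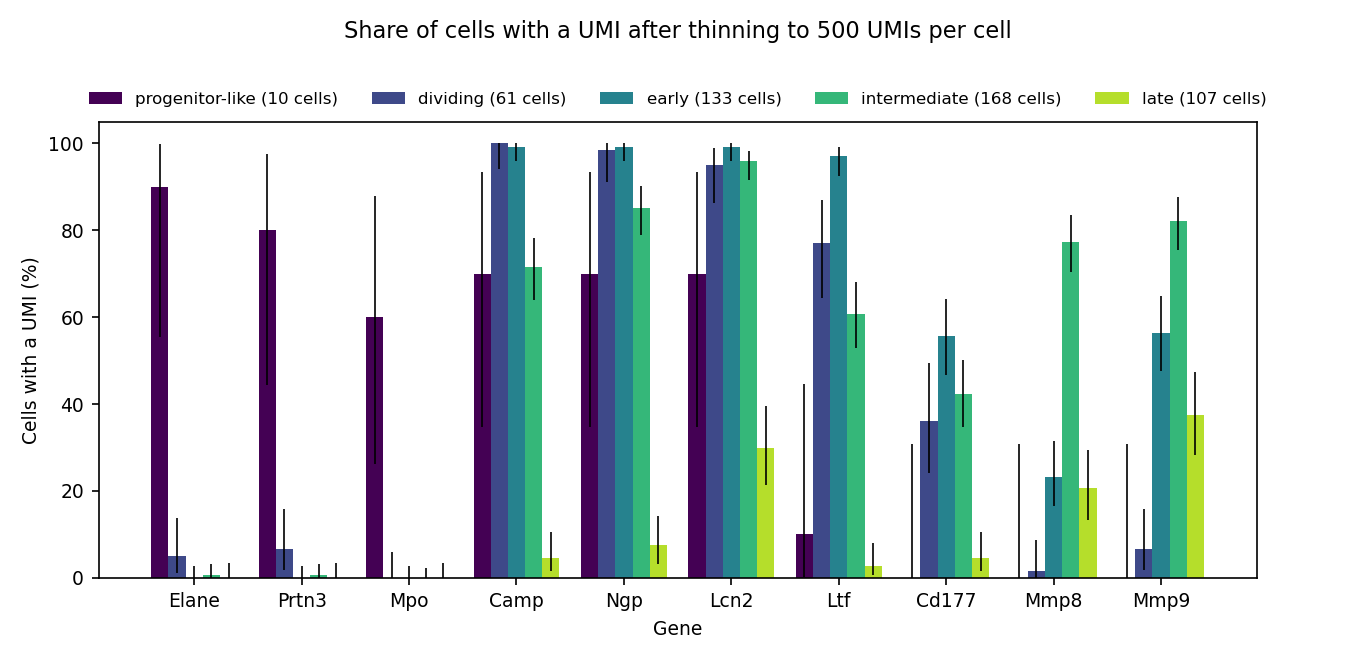
Share of cells with at least 1 UMI of each member, after every cell was thinned at random to 500 UMIs, by stage (cells per stage in the legend). Bars start at 0, and lines are exact 95% binomial intervals. Ltf is seen in 97.0% of early cells and 2.80% of late cells, Mmp9 in 56.4% and 37.4%.

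Since late cells were shallow, shares of cells with a UMI were compared after thinning to 500 UMIs. Camp was seen in 99.2% of early cells, 71.4% of intermediate cells and 4.67% of late cells (without thinning 100%, 82.1% and 8.41%). Mmp8 was seen in 23.3%, 77.4% and 20.6%, and Mmp9 in 56.4%, 82.1% and 37.4% of the same stages. As in the summed levels, Mmp8 and Mmp9 were highest in intermediate cells. For Mmp8 the order of early and late cells differed between the thinned shares and the summed levels. In cells outside the neutrophil-like and dividing clusters (median 2232 UMIs before thinning), the thinned share was 2.20% for Camp, 0.836% for Ltf, 0.570% for Mmp8 and 0.570% for Mmp9. The late share of Camp (interval 1.53% to 10.6%) overlaps that background (1.68% to 2.84%), and so does that of Ltf. The late level of Camp without its richest cell was 157 CPM (interval 89.5 to 254), and outside cells with fewer than 10 member UMIs stood at 35.7 CPM. These 2 levels are not alike, since the outside cells were chosen by their member UMIs and the late cells were not. That choice kept 247 of the 1335 Camp UMIs of all outside cells, so the levels do not set late Camp above background. As point values, the late shares of Lcn2 (29.9%), Ngp (7.48%), Cd177 (4.67%), Mmp8 and Mmp9 stood above the interval of the share in outside cells. By this looser measure the 4.67% of Camp also did, and Cd177 has the same late interval as Camp (1.53% to 10.6%). The members are thus not ordered by the 2 measures.

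The rule set for 2 groups places 310 cells (the early and intermediate stages and the subcluster of 9 cells) against 118 (the late stage and the subcluster of 11 cells). By it, 6 of 7 members with 30 UMIs were at least 2-fold higher in immature cells, against 14.6% of 2204 genes, and 26.4% of genes were at least 2-fold higher in mature cells. The log2 ratio was 6.06 for Ngp, 5.88 for Camp, 5.13 for Ltf, 3.42 for Cd177, 3.30 for Lcn2, 1.58 for Mmp8 and 0.92 for Mmp9, and the median gene stood at -0.35. The ratio moved with the settings that choose and group the cells: when the granule genes were used to cluster, or the barcode filter was changed, Mmp8 and Mmp9 turned to the mature side (log2 -1.83 and -1.18 with granule genes used, -1.92 and -0.67 with the stricter filter, -0.33 and -0.10 with no filter). The other 5 members stayed on the immature side in all 15 settings, from 0.64 for Lcn2 to 8.16 for Ltf.

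The levels are relative to the total. Leaving the members, S100a8 and S100a9 out of the total moves every log2 ratio of early over late by 0.75, of intermediate over late by 0.53 and of progenitor-like over dividing by -0.47. Mmp8 in early over late cells, at -0.20, is at 0.26 when centred on the median gene and 0.55 without those genes, so early and late cells cannot be ordered for Mmp8. For Mmp9 the same difference was 0.09 (interval -0.17 to 0.36), 0.56 when centred on the median gene and 0.84 without those genes.

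Other granule genes, from fixed lists, were counted in the same comparisons. Of 8 other primary granule genes 4 had 30 UMIs in progenitor-like and dividing cells together. Of these, 3 were at least 2-fold higher in progenitor-like cells (Ctsg, Cd63, Prss57), against 27.2% of 1200 genes. The median log2 ratio was 1.99 against 0.31 over all genes. Ctsg is on the marker list that named the progenitor-like cells, so its place there was built in. Ctsg, cathepsin G, stood at 1152 CPM in progenitor-like cells and 42.6 in dividing cells, with no UMI in early, intermediate or late cells. Prss57, a serine protease, went from 274 to 51.1 CPM, while the membrane protein Cd63 was at 955, 327, 295, 161 and 250 CPM from progenitor-like to late cells. By the 2-group rule 3 of the 8 had 30 UMIs, with 0 at least 2-fold higher in immature cells and 1 in mature cells (Ctsd). The shares of all genes were 14.6% and 26.4%.
Of 10 other secondary granule genes, 8 were at least 2-fold higher in immature than in mature cells by the 2-group rule and none lower, with a median log2 ratio of 1.43. Over all 2204 genes the shares were 14.6% and 26.4% and the median -0.35. Chil3, a chitinase-like protein, followed Camp, at 2162, 5195, 5135, 1176 and 76.8 CPM. Pglyrp1, which binds peptidoglycan, stood at 1997, 2309, 3709, 4007 and 1575 CPM. Olfm4, a marker of a subset of neutrophils, had 16 UMIs in early and 20 in intermediate cells and 0 in the other stages.
Of 7 other tertiary granule genes, 5 had 30 UMIs by the 2-group rule, with 2 at least 2-fold higher in immature cells (Mmp25, Fcnb) and 1 in mature cells (Ptafr), against the same shares of all genes. The group does not share 1 pattern: Fcnb, ficolin B, was at 680 CPM in progenitor-like cells and 0 in late cells, while Mmp25, a membrane metalloproteinase, was at 262 CPM in intermediate cells and Adam8 at 283.

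Genes that regulate or restrain granule proteins differed by stage. Cebpe, the transcription factor of the secondary granule programme, stood at 494, 508, 428, 199 and 38.4 CPM from progenitor-like to late cells, and Cebpb at 658, 511, 210, 637 and 1728 CPM. Of 8 regulator genes 5 had 30 UMIs by the 2-group rule, with Cebpe higher in immature cells and Cebpb, Cebpd and Runx1 higher in mature cells, against 14.6% and 26.4% of all genes. Cebpe is on the list that set the 2 groups, so its side was built in. Serpinb1a, an inhibitor of elastase and proteinase 3, was at 944 CPM in progenitor-like cells, 500 in dividing, 496 in early, 231 in intermediate and 19.2 in late cells. Slpi, another protease inhibitor, ran the other way, from 65.8 to 151, 292, 1799 and 3572 CPM. Of 4 measured inhibitors 2 were at least 2-fold higher in immature cells (Serpinb1a, Stfa1) and 1 in mature cells (Slpi), against the same shares of all genes.
Among secretory vesicle genes, which mark the last store to form, Fpr1, a formyl peptide receptor, stood at 0, 5.68, 29.5, 108 and 374 CPM. Fpr2, a formyl peptide receptor that binds cathelicidin, stood at 0, 128, 567, 623 and 336 CPM. The Lcn2 receptor gene Slc22a17 had 0 UMIs in all 5 stages.

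Across the 14 clusters, the genes most like the summed primary members by Pearson correlation of log2 (CPM + 10) were Ctsg (0.856), Ms4a3 (0.840), Prg2 (0.765), Spaca9 (0.761) and Bckdk (0.706). Of the 405 Prg2 UMIs, 371 lay in 1 progenitor-like cell that held no Elane UMI, so the place of Prg2 rests mostly on that cell. The summed secondary members were most like Wfdc21 (0.934), Adpgk (0.931), Cebpe (0.924), Tmem216 (0.920) and Ly6g (0.917). Mmp8 was most like Ceacam10 (0.957), Sgms2 (0.945), Hk3 (0.934), 1600014C10Rik (0.929) and Rab3d (0.926), and Mmp9 most like Retnlg (0.960), Slfn4 (0.959), Alox5 (0.943), Gm39556 (0.928) and Fpr2 (0.926). The 14 points share a library, and each is 1 cluster of cells. Wfdc21, Adpgk, Cebpe and Ly6g are also on the list that ordered the early, intermediate and late stages.

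Outside the neutrophil-like and dividing clusters, members were low, and most of their counts lay in few cells. The 2632 cells held 3823 member UMIs (546 CPM), and 12 cells with 10 or more held 2942 of them. The other 2620 cells held 881 UMIs (127 CPM). In the neutrophil-like clusters members stood 137-fold higher than outside (74560 CPM against 546). Of the 10 members, 7 were at least 2-fold higher in neutrophil-like cells and 2 at least 2-fold higher outside (Elane 12.5-fold and Prtn3 2.53-fold), against 9.12% and 50.5% of 9756 genes. Most of the Elane outside lay in the 12 cells, since the other 2620 held 16 of 113 UMIs, and the Elane fold rests on 1 UMI in neutrophil-like cells. In those 2620 cells Prtn3 stood at 7.52 CPM, against 7.72 CPM in neutrophil-like cells, so its difference rests on the 12 cells. Single cells held 95.2% of the member UMIs of the mature dendritic cell-like cluster, 95.5% of the Vcam1 macrophage-like cluster and 77.5% of the Cd209d conventional dendritic cell-like cluster. With the 6% of cells of highest doublet score removed and cells clustered again, members outside stood at 229.8 CPM.

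**Figure D4:**
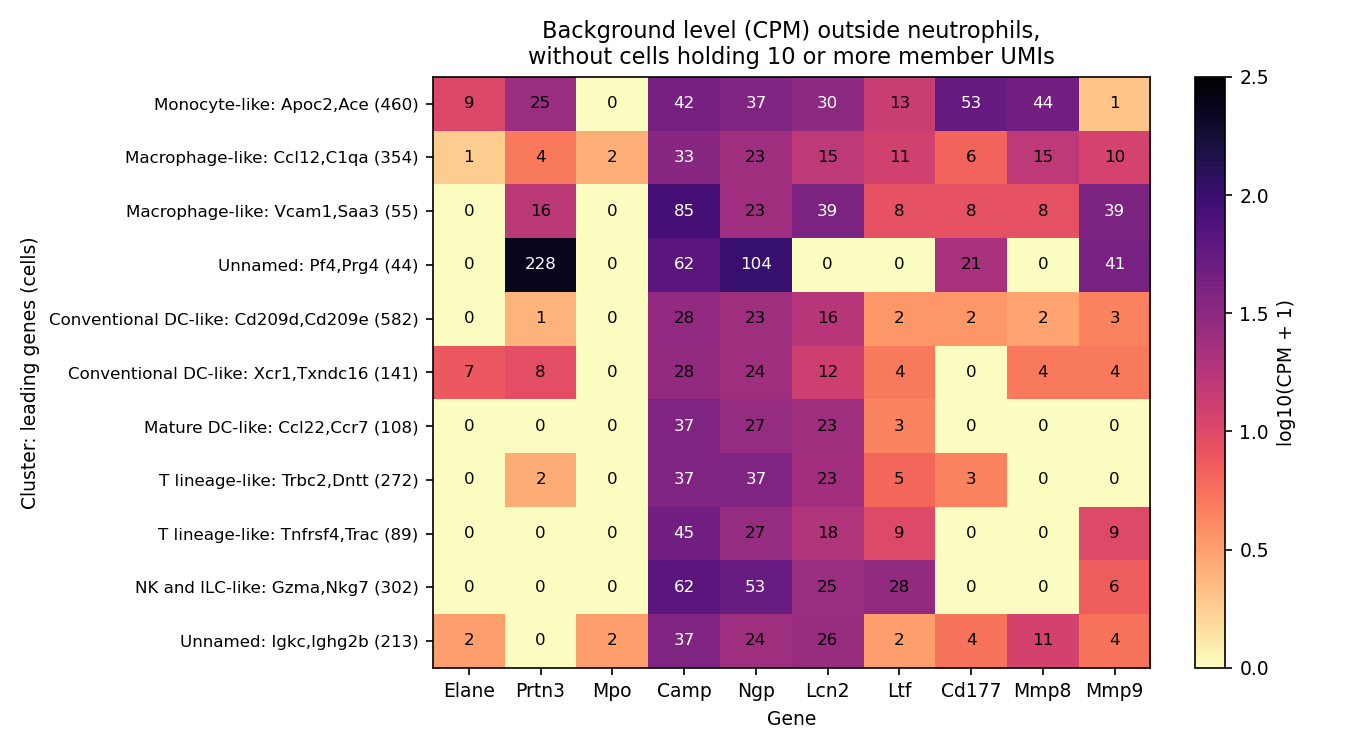
Level of each member (CPM, number in each field, colour on a log10 scale) in the 11 clusters outside the neutrophil-like and dividing cells, without cells that hold 10 or more member UMIs. Rows are clusters with 2 leading genes and the number of cells. Camp stands between 28 and 85 CPM in every cluster, whereas Cd177 (53 CPM) and Mmp8 (44 CPM) are highest in the monocyte-like cluster and Prtn3 (228 CPM) in the unnamed Pf4 cluster.

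In the remaining cells Camp was found at a low level in every cluster, from 27.8 CPM in the Xcr1 conventional dendritic cell-like cluster to 61.8 CPM in NK and ILC-like cells and 85.3 CPM in the small Vcam1 macrophage-like cluster. Camp made up 28.0%, Ngp 22.4%, Lcn2 15.6% and Ltf 5.68% of those UMIs, against 33.4%, 30.4%, 18.7% and 10.5% in neutrophil-like cells. The intervals of Camp did not all overlap, with 21.6 to 36.9 CPM in the Cd209d cluster against 37.7 to 95.4 CPM in NK and ILC-like cells. The makeup differed from that of neutrophil-like cells for Cd177 and Mmp8 in monocyte-like cells, and for Mmp8 also in the macrophage-like cluster led by Ccl12 and C1qa. In 354 cells of that macrophage-like cluster Mmp8 made up 12.7% of member UMIs (19 UMIs, interval 7.80% to 19.1%), Mmp9 8.67% and Cd177 4.67%. Its Mmp8 interval overlaps that of monocyte-like cells. In monocyte-like cells (Ace, Treml4) Cd177 made up 21.0% of member UMIs and Mmp8 17.3% (interval 12.8% to 22.6%), against 1.72% and 2.16% in neutrophil-like cells.
There were 51 Cd177 UMIs in 41 of 460 monocyte-like cells (at most 3 per cell, 53.5 CPM, interval 39.8 to 70.3) and 42 Mmp8 UMIs in 36 cells (44.1 CPM, 31.7 to 59.5), with 1 Mmp9 UMI. In 302 NK and ILC-like cells there were 0 UMIs of Cd177 and Mmp8, with Camp at 61.8 CPM. After thinning to 500 UMIs, 1.73% of monocyte-like cells held a Cd177 UMI and 1.73% a Mmp8 UMI. Over all cells outside, which include the monocyte-like cells, the shares were 0.456% and 0.570%. Each of these shares rests on few cells. Their intervals overlap, but the wider group holds the monocyte-like cells, so the overlap does not compare separate groups.
Prtn3 also departed from the neutrophil profile. It had 24 UMIs in 17 monocyte-like cells of 460 (25.2 CPM), 11 UMIs in 6 of 44 cells of the unnamed Pf4 and Prg4 cluster (228 CPM, interval 114 to 408, at most 5 per cell), and 3 UMIs in 582 cells of the Cd209d cluster. The 2 groups of dividing cells that were not neutrophil-like also held Elane and Prtn3. The unnamed one (23 cells) held 19 Elane and 33 Prtn3 UMIs with no Camp. The monocyte-like one (31 cells) held 15 of each with 147 Camp UMIs, 103 of them in 1 cell, and Camp without that cell stood at 286 CPM.

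The deepest barcode of the library, with 18653 UMIs, lay in the immunoglobulin cluster and held 4202 Igkc UMIs beside 83 Elane, 31 Mpo, 70 Prtn3 and 150 Ngp UMIs. Its doublet score was 0.195 against a calling threshold of 0.519. Without cells of 10 or more member UMIs, the immunoglobulin cluster held 1 Elane, 1 Mpo and no Prtn3 UMI in 213 cells.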

How the data were processed

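The files deposited by the authors hold unnormalized counts of UMIs for each gene and barcode. The barcodes of the 2024 library were not analysed here, so barcodes shared by the libraries were not counted. Per the file headers they were made with Cell Ranger 6.0.0 (2021) and 8.0.0 (2024), and per the submitters' processing notes on the mm10 build. The 2024 counts (2815 barcodes, 33696 gene rows) have no gene list here and were not used for genes. Barcodes of 2021 were filtered at 500 UMIs, 300 genes and 10% mitochondrial UMIs, and Scrublet called 3 doublets (0.0941%), too few for the caller to have worked, so doublets were in effect not removed. Counts were scaled to 10000 per cell, and 2000 variable genes, 30 components and 15 neighbours entered Leiden clustering at resolution 0.5 (scanpy 1.11.5, igraph 0.11.9), with 35 granule genes left out. Neutrophil-like cells were subclustered at 0.5 and the dividing cluster at 1.0, a value chosen after the data were seen. A cluster was named from the list with most raised markers (at least 3), unless another list had more markers among its 10 leading genes, or its median depth was more than 3 times lower than that of all cells and none of its markers was among those genes.

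Levels are summed counts per 1000000 UMIs with exact 95% Poisson intervals, shares have exact binomial intervals, and ratios have exact conditional intervals, all covering counting error only. A side at 0 was set to 3 counts. With 1 library no test was made, and a gene counts as different past 2-fold with at least 30 UMIs. The named genes are the 10 members, the 5 genes most like each summed class, Mmp8 and Mmp9, and the fixed lists. The plan counted list genes by intervals that exclude a ratio of 1. This was replaced by the 2-fold rule. Members and lists were chosen with earlier results of these data known. The ratio function was tested on simulated data. The thinning function was checked on cells of the library, only for returning the set number of UMIs. Promoter sequences are from RefSeq (GRCm38.p6), which matched 9 of 10 members, and gene positions from GENCODE on the same build. Mmp9 has no entry. UMIs of 3′ reads do not depend on transcript length. Alternatives are given in the closing section.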

Additional observations from a re-analysis of the deposited data

How the results depend on the processing

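Gene values come from 1 library, so no replicate could be left out. No paired analysis was possible because gene-level values come from 1 library. Cells were deepest in progenitor-like and shallowest in late cells, and depth limits the late values most. All values in this paragraph are over the 10 members summed unless a gene is named, and the cause of a shift was not tested. With no filter on barcodes the level in neutrophil-like cells was 81760 CPM in place of 74560, the immature over mature ratio 3.32 in place of 4.16 (log2) and the share of member UMIs in neutrophil-like cells 96.3% in place of 55.2%. With the stricter filter these were 91800 CPM, 0.89 and 53.2%, the background was 485.9 CPM in place of 546.1 and the share of thinned cells with a member 100% in place of 96.7%. With called doublets kept the background was 605.4 CPM, the ratio 2.56 and the share of UMIs 54.5%. With the highest doublet scores removed the background was 229.8 CPM and the ratio 4.32. At resolution 1.0 they were 609.3 CPM and 3.34, with 53.6% of UMIs. With granule genes used to cluster, the level was 81170 CPM, the background 235.1 CPM, the ratio 2.15 and the share of UMIs 98.4%. With members left out of the total, the level was 80570 CPM and the ratio 4.29. With cells chosen by marker UMIs, the background was 126.2 CPM, the ratio 1.82 and the share of UMIs 99.0%. Thinning to 500 UMIs gave 88.8% of cells, thinning to 2000 gave 100% and no thinning 90.7%. Stages set per cell by the lists gave a ratio of 4.99 and subcluster resolution 1.0 gave 4.39. Without the richest cell of each class the background was 146.1 CPM. Alternatives chosen after seeing the data gave 76380 CPM and 4.04 without small subclusters, 127.4 CPM of background without cells of at least 10 member UMIs, and ratios of 4.51 (centred on the median gene) and 4.81 (members, S100a8 and S100a9 left out of the total). For single genes, the direction turned for Mmp8 (-0.33 with no filter, -1.92 with the stricter filter, -1.83 with granule genes used to cluster) and for Mmp9 (-0.10, -0.67 and -1.18). The level of primary genes in neutrophil-like cells also moved. Over 10 settings it ran from 0 to 695 CPM for Elane, 0 to 164 CPM for Mpo and 7.72 to 766 CPM for Prtn3. Over the summed and single-gene values, 229 moved by less than their interval, 313 moved more and 6 changed sign.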
